A study of Mus musculus with 8 samples.

Results

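The genes described here are 46 mouse genes for histone deacetylases, sirtuins, histone acetyltransferases, histone demethylases, EZH methyltransferases and the scaffolds and subunits that hold such enzymes in SIN3, CoREST and NuRD complexes. They were chosen by symbol and function, with no threshold on their values but with earlier results of these data known. They are a selection of chromatin regulators outside the NCOR complex itself. All 46 had a probe set assigned to a single gene and make up 46 of the 22180 genes measured.

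Liver RNA of 3-month-old mice kept on chow and a normal light cycle was hybridised as 8 samples, 1 per array, to the Affymetrix Mouse Gene 2.0 platform. Mice with a floxed gene for NCOR, per the series' design text, received a virus (AAV, adeno-associated virus) by vein, and livers were taken 2 weeks later at 5 pm, zeitgeber time 10. The NCOR_KO group (n = 4) received AAV-Cre, a recombinase that excises the floxed part, and the WT group (n = 4) received AAV-GFP. The labels call the controls wild-type, so whether they carry the floxed allele is not settled, the promoter that drove Cre is not given in the sources used here, and an effect of Cre itself cannot be told apart from loss of NCOR. The replicates are called biological, but nothing links each array to its own mouse, and the p-values rest on the spread between samples, which may be technical. Values for the targeted gene were not analysed here, so the labels were not checked against it. All values below are log2 probe set intensities, and differences are NCOR_KO minus WT with the standard error (SE) of the limma fit.

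NCOR is a corepressor scaffold: nuclear receptors without an activating ligand bind it, and it brings the class I deacetylase HDAC3 to their target genes and activates it. Other corepressors work by the same principle with other enzymes. SIN3, NuRD and CoREST are separate complexes built around HDAC1 and HDAC2, and CoREST adds the demethylase KDM1A. Acetyltransferases such as p300 and CBP do the reverse and place acetyl groups where HDACs remove them. Because these complexes overlap in chemistry, the comparison asks whether transcripts of other chromatin regulators differed in liver once NCOR was targeted.

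None of the 46 regulators passed the test. With limma and Benjamini-Hochberg adjustment over all 22180 genes, 0 of 46 had an adjusted p under 0.05, against 1.65% of all genes (0.816% higher and 0.834% lower in knockout liver) and 2.97% of the 11090 genes at or above the median gene level of 5.88, where 45 of the 46 lay. The smallest adjusted p, 0.0547, was that of Hdac5. Over all genes 181 were higher and 185 lower, or 147 and 383 with each array centred on its median. Differences of the 46 ran from -0.30 (Sirt3) to 0.31 (Hdac5), so the largest estimate corresponded to 1.24-fold. In 28 of the 46 the difference was under 0.1 in size, and in 9 it was over 0.2. Small differences were common over all genes too, with a median size of 0.08 against 0.06 for the 46. The shares of all genes under 0.1 and over 0.2 were not counted.

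**Figure D1:**
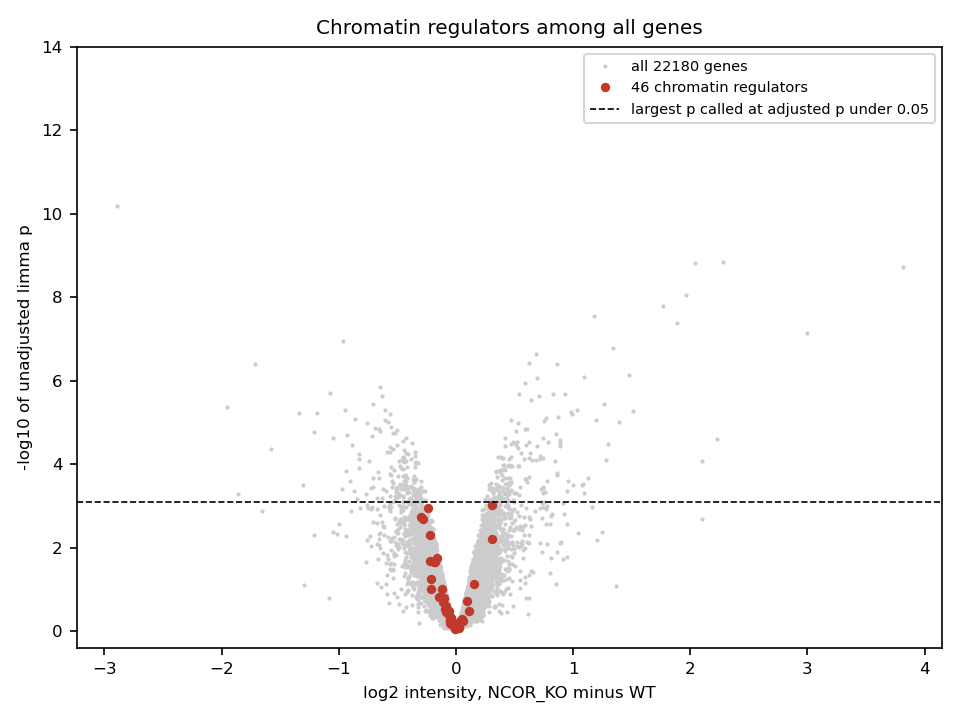
The horizontal axis gives the log2 difference NCOR_KO minus WT and the vertical axis minus log10 of the unadjusted limma p for all 22180 genes (grey) and the 46 chromatin regulators (red), with a dashed line at the largest p that was called. All red points lie below the line and between -0.30 and 0.31, while grey points reach -2.90 and 3.81.

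A missed threshold does not show that levels were alike, so the 95% confidence interval of each difference, unadjusted, was set against a fixed bound. For 46 of 46 regulators the interval lay wholly within a 1.5-fold change in either direction, as it did for 95.5% of all genes and 93% of those at or above the median level. For 25 of 46 (54.3%) it lay within a 1.2-fold change, against 49% of all genes. For 41 of 46 (89.1%) the upper limit was under a 1.2-fold rise, against 71.7% of all genes and 73.8% at or above the median level. The lower limit was above a 1.2-fold fall for 30 of 46 (65.2%), against 75% of all genes and 67.8% at or above the median level. The highest upper limit was that of Kdm6b, at 0.51 or 1.42-fold, and the lowest lower limit that of Kdm3a, at -0.47 or 1.38-fold lower.

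Without adjustment, 10 of 46 (21.7%) had a p under 0.05, of which 2 had positive and 8 negative differences. Over all genes that share was 15.9% (7.75% higher and 8.15% lower). Among genes at or above the median level it was 22.5% (8.79% higher and 13.7% lower). In 8 of 46 (17.4%) the 4 knockout values and the 4 control values did not overlap, 1 with knockout above and 7 with knockout below. Such separation was seen in 10.4% of all genes (4.9% above and 5.49% below) and in 15.4% of genes at or above the median level (5.9% above and 9.46% below). Without direction, the shares of the 46 (21.7% and 17.4%) were near those of all genes with a level of 5.88 or more (22.5% and 15.4%). That comparison set was not matched to the 46 regulators, whose median log2 level per array was 8.03 to 8.18.

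Estimates lay below 0 for 33 of 46 regulators (71.7%), with a median of -0.05, against 48% of all genes, and 55.3% and -0.02 among genes at or above the median level. Quantile normalization gave 31 of 46 below 0 against 51.2%, and centring each array on its median gave 39 of 46 against 67.1%. The median of the 46 depended on the scaling. It was -0.01 with quantile normalization, against -0.004 among genes at or above the median level, and -0.09 with centring, against -0.06. The first principal component of the 46 genes' values held 35.4% of their variance and parted the groups, with WT arrays at -0.59 to -0.24 and NCOR_KO arrays at 0.20 to 0.67. That of all genes did the same, with 33.1% of the variance, WT arrays at -15.2 to -9.10 and NCOR_KO arrays at 8.87 to 18.7. The mean deviation of the 46 genes from their own means was 0.04, 7.01e-04, 0.01 and 0.06 in WT replicates 1 to 4 and -0.02, -0.04, 0.01 and -0.06 in NCOR_KO replicates 1 to 4. These means overlapped between the groups.

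**Figure D2:**
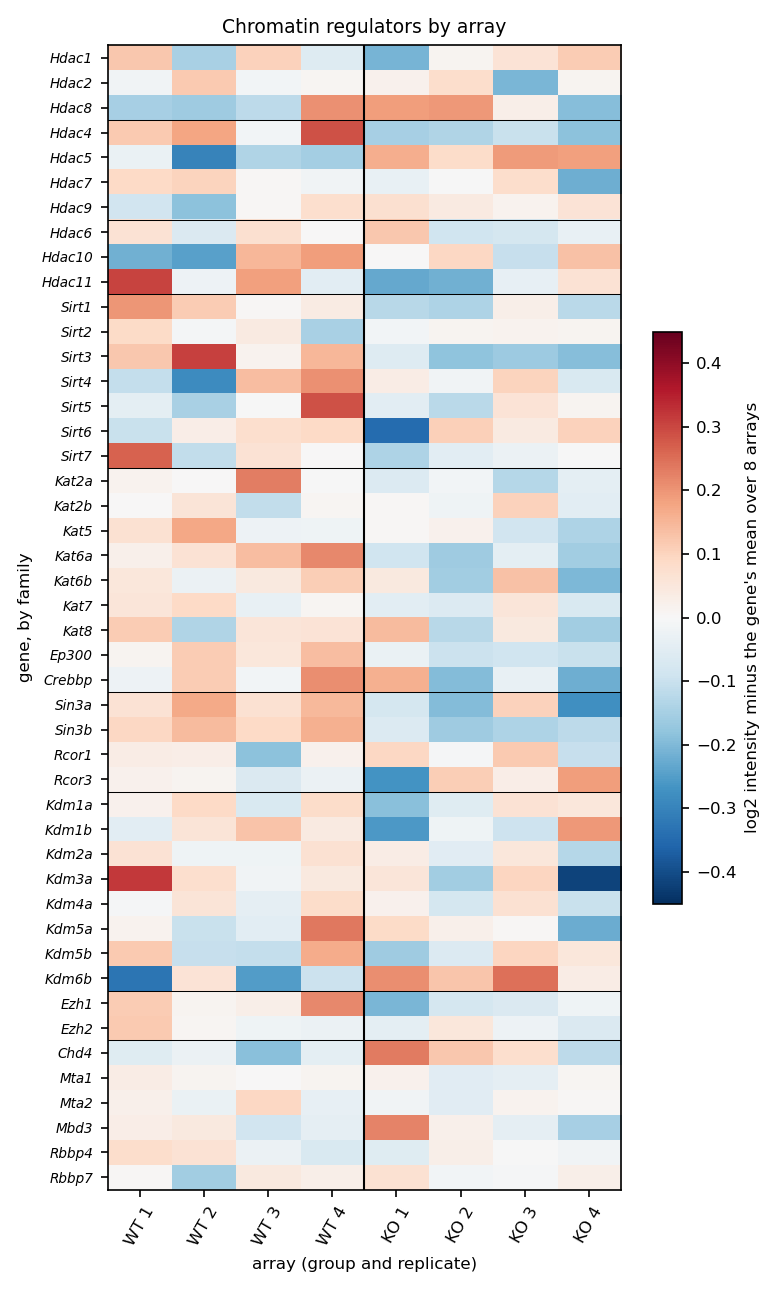
Rows are the 46 genes by family and columns the 8 arrays; colour gives log2 intensity minus the gene's mean over the 8 arrays. Few rows change colour cleanly at the line between the groups, among them Hdac4, Hdac5, Sirt3 and Sin3b, and most rows hold both colours within a group.

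The class IIa deacetylases, HDAC4, HDAC5, HDAC7 and HDAC9, shuttle between nucleus and cytoplasm under control of kinases, have little deacetylase activity of their own and bind the NCOR-HDAC3 complex. In liver they are known to enter the nucleus on fasting signals and to act with FOXO factors on gluconeogenic genes. They held both the gene nearest to the threshold and a second one with the opposite sign.

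Hdac5 stood at 7.94, 7.67, 7.83 and 7.81 in WT replicates 1 to 4 and at 8.13, 8.05, 8.16 and 8.15 in NCOR_KO replicates 1 to 4. All 4 knockout samples lay above all 4 controls, and the knockout values were the more tightly grouped. The difference was 0.31 ± 0.07 SE, 1.24-fold, with a 95% interval of 0.16 to 0.46 and an adjusted p of 0.0547 (unadjusted p = 9.70e-04, where the largest p called among all genes was 8.24e-04). It passed in 4 of 16 alternative fits, with adjusted p-values from 0.0194 with quantile normalization to 0.147.

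Hdac4 stood at 7.86, 7.92, 7.73 and 8.03 in the 4 controls and at 7.60, 7.61, 7.64 and 7.56 in the 4 knockouts. All knockout samples lay below all controls. The difference was -0.28 ± 0.07 SE, or 1.22-fold lower (95% interval -0.44 to -0.13, adjusted p = 0.0773). It passed in 1 of 16 alternative fits, that of genes at or above the median level (adjusted p = 0.0468), and the adjusted p ranged up to 0.207.

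Hdac7, the class IIa enzyme known from endothelial cells and lymphocytes, was at -0.09 ± 0.07 SE (adjusted p = 0.592) with overlapping groups. Hdac9, the fourth member of the class, was at 0.09 ± 0.07 SE (adjusted p = 0.528). It was the 1 regulator below the median gene level, at 4.87 in control and 4.96 in knockout liver, where a dim signal limits what can be seen.

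The class I enzymes HDAC1 and HDAC2 are the catalytic core of SIN3, NuRD and CoREST, and HDAC8 works outside these complexes, on cohesin among others. Hdac1 differed by -0.01 ± 0.09 SE (8.81 in control, 8.80 in knockout liver; adjusted p = 0.967), a difference that turned positive under quantile normalization, and Hdac2 by -0.05 ± 0.07 SE (8.27 and 8.22; adjusted p = 0.794). The intervals allow at most a rise of 0.18 for Hdac1 and of 0.11 for Hdac2. Hdac8 had the largest estimate of the class, 0.11 ± 0.11 SE (adjusted p = 0.658). Its controls were at 6.29, 6.28, 6.33 and 6.65 and its knockouts at 6.63, 6.64, 6.47 and 6.25. The single high control and the single low knockout put the groups across each other. Probe sequences were not used here, so signal shared between close paralogs such as Hdac1 and Hdac2 was not checked.

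The remaining zinc-dependent enzymes are HDAC6, a cytoplasmic tubulin deacetylase, HDAC10, which acts on polyamines, and HDAC11, the only class IV enzyme, known to remove fatty acyl groups. None of the 3 passed. Hdac11 had the largest estimate, with controls at 8.06, 7.73, 7.94 and 7.71 and knockouts at 7.52, 7.54, 7.72 and 7.82. Only 2 of the 4 knockouts lay below all controls, and the difference was -0.21 ± 0.10 SE (adjusted p = 0.328). Its second, dimmer probe set gave 6.00 in both groups, a difference of -0.0038. Hdac6 was at -0.04 ± 0.07 SE and Hdac10 at 0.06 ± 0.11 SE.

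**Figure D3:**
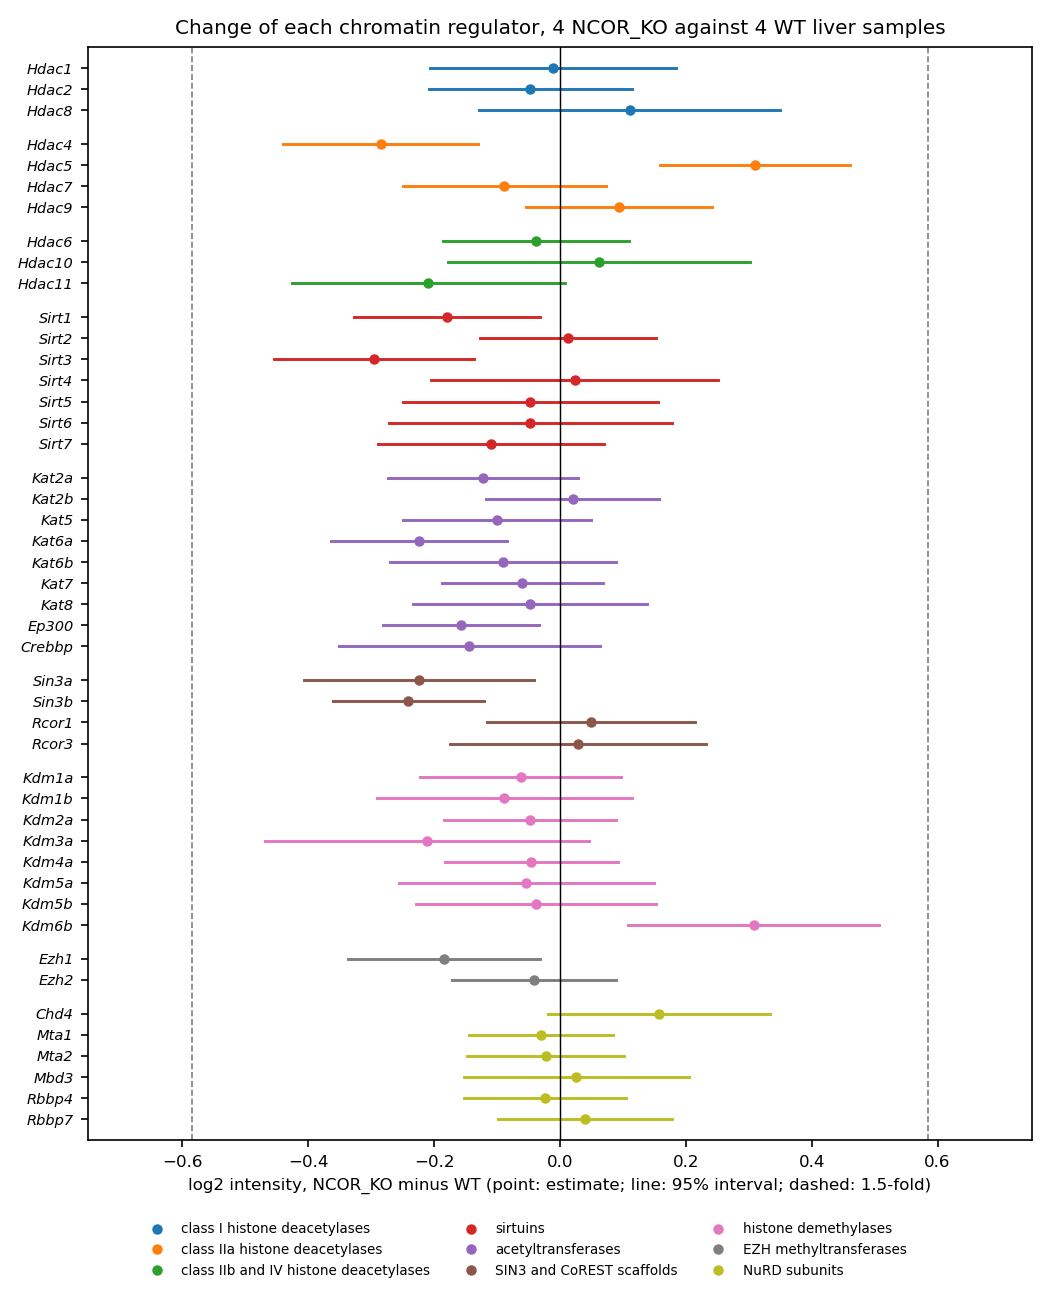
Points give the log2 difference NCOR_KO minus WT of each gene and lines its unadjusted 95% confidence interval, coloured by family; dashed lines mark a 1.5-fold change. All 46 intervals lie between the dashed lines, and Hdac5 and Kdm6b are the 2 whose interval lies wholly above 0.

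Sirtuins are NAD-dependent deacylases that respond to the energy state of the cell, and none of the 7 passed. Estimates lay below 0 in 5 of 7, where 55.3% of genes at or above the median level did; the count became 6 with quantile normalization, against 51.2%, and 7 with centred arrays, against 67.1%. Sirt3, the main deacetylase of mitochondrial proteins, had the most negative estimate of all 46 genes. It stood at 9.86, 10.05, 9.76 and 9.89 in controls and 9.69, 9.56, 9.58 and 9.55 in knockouts. All 4 knockouts lay below all controls, though NCOR_KO replicate 1 and WT replicate 3 came close. The difference was -0.30 ± 0.07 SE, or 1.23-fold lower (95% interval -0.45 to -0.14, adjusted p = 0.0749), and it passed in 2 of 16 alternative fits (adjusted p from 0.0448 to 0.190).

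Sirt1, the nuclear sirtuin that deacetylates FOXO factors and PGC-1α, was at -0.18 ± 0.07 SE (8.13 ± 0.09 in control and 7.95 ± 0.08 in knockout liver, SD, n = 4; adjusted p = 0.224). Its highest knockout, 8.06, reached into the controls, whose lowest was 8.05. The other mitochondrial sirtuins differed little. Sirt4 was at 0.02 ± 0.10 SE, with a sign that turned under both other scalings, and Sirt5, which removes succinyl groups, at -0.05 ± 0.09 SE. The cytoplasmic Sirt2 was at 0.01 ± 0.06 SE, also with a sign that turned under both scalings, the chromatin-bound Sirt6 at -0.05 ± 0.10 SE, turning under quantile normalization, and the nucleolar Sirt7 at -0.11 ± 0.08 SE. The adjusted p of these 5 ran from 0.546 (Sirt7) to 0.945 (Sirt2).

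None of the 9 acetyltransferases passed. Estimates lay below 0 in 8 of 9, with a median of -0.10, where 48% of all genes and 55.3% of genes at or above the median level did. The count was 8 with quantile normalization, against 51.2% at that level, and 9 with centred arrays, against 67.1%. The family's median was -0.05 with quantile normalization and -0.14 with centred arrays. In 3 of the 9 all knockout values lay below all controls, a separation seen in 5.49% of all genes and 9.46% at or above the median level. Kat6a, which encodes MOZ of the MYST family, had the largest estimate. Its values were 8.21, 8.25, 8.33 and 8.40 in controls against 8.10, 8.03, 8.15 and 8.03 in knockouts, so the nearest arrays of the groups lay 0.07 apart. The difference was -0.22 ± 0.06 SE (adjusted p = 0.115).

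Ep300 and Crebbp encode p300 and CBP, the closely related coactivators that nuclear receptors and CREB recruit. Ep300 stood at 8.93, 9.03, 8.97 and 9.05 in controls and 8.88, 8.82, 8.83 and 8.82 in knockouts. The groups did not overlap, yet the difference was small, -0.16 ± 0.06 SE or 1.11-fold lower (adjusted p = 0.205). Crebbp had a similar estimate, -0.14 ± 0.09 SE (adjusted p = 0.489), but its knockouts spread from 9.60 to 9.98 across the controls at 9.80 to 10.03.

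Kat2a and Kat2b encode GCN5 and PCAF, the acetyltransferases of the SAGA and ATAC type complexes. Kat2a was at 7.80, 7.79, 8.01 and 7.78 in controls and 7.72, 7.77, 7.66 and 7.74 in knockouts. The groups did not overlap, but 3 controls lay close to the knockouts and 1 far above. Its difference was -0.12 ± 0.07 SE (adjusted p = 0.416), and without WT replicate 3 it was -0.07. Kat2b was at 0.02 ± 0.06 SE (adjusted p = 0.905), the only positive estimate of the family, and -0.02 with centred arrays.

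The other MYST enzymes had overlapping groups. Kat5, which encodes TIP60, was at -0.10 ± 0.07 SE, Kat6b (MORF) at -0.09 ± 0.08 SE, Kat7 (HBO1) at -0.06 ± 0.06 SE and Kat8 (MOF) at -0.05 ± 0.08 SE. Their adjusted p-values were 0.504, 0.627, 0.656 and 0.824.

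Of the 4 scaffolds both SIN3 genes had negative estimates and both CoREST genes estimates near 0, and none passed. SIN3A and SIN3B are paralogous scaffolds that hold HDAC1 and HDAC2. Sin3b stood at 7.96, 8.01, 7.96 and 8.03 in controls and at 7.81, 7.71, 7.73 and 7.75 in knockouts. Both groups were tight (SD 0.04 and 0.04, n = 4 each) and well apart. The difference was -0.24 ± 0.05 SE, or 1.18-fold lower (95% interval -0.36 to -0.12, adjusted p = 0.0583), and it passed in 3 of 16 alternative fits (adjusted p from 0.0291 to 0.163).

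Sin3a had nearly the same estimate with more spread, -0.22 ± 0.08 SE (adjusted p = 0.220). Its controls lay between 8.35 and 8.45, and its knockouts between 8.01 and 8.39, 1 of them inside the control range. Rcor1 and Rcor3 encode CoREST scaffolds, which join HDAC1 and HDAC2 to KDM1A. Rcor1 was at 0.05 ± 0.07 SE (adjusted p = 0.789). Rcor3 was at 0.03 ± 0.09 SE (adjusted p = 0.910), with knockouts from 7.47 to 7.92 around controls at 7.67 to 7.75, and at -0.01 with centred arrays.

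**Figure D4:**
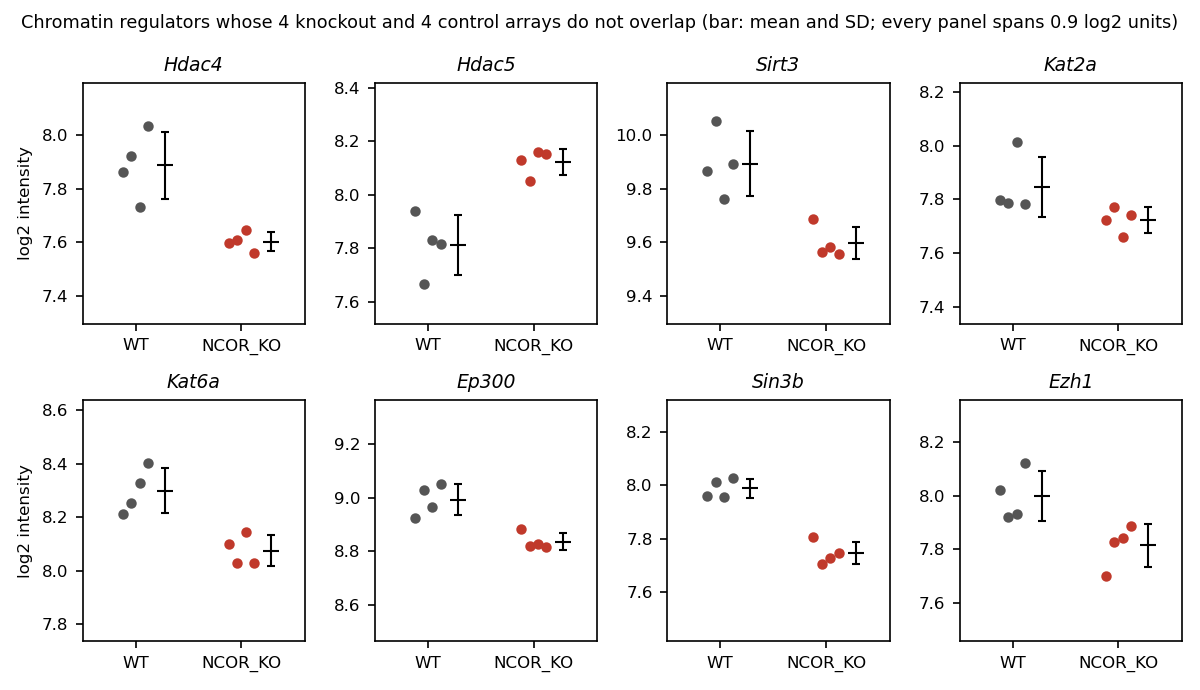
Points give the log2 intensity of each array for the 8 chromatin regulators whose groups do not overlap, with WT in grey and NCOR_KO in red; bars give mean and SD (n = 4), and each panel spans the same range on the log2 scale. Only Hdac5 has its knockout arrays above the controls, and the gap between groups is narrow in Kat2a, Ezh1 and Ep300.

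Histone demethylases remove methyl groups by a flavin-dependent reaction (KDM1A and KDM1B) or by the oxygen-dependent Jumonji domain (the others here). None of the 8 genes passed. Estimates lay below 0 in 7 of 8, against 55.3% of genes at or above the median level, in 6 with quantile normalization, against 51.2%, and in 7 with centred arrays, against 67.1%. The 1 positive estimate was that of Kdm6b, which encodes an eraser of repressive methylation on histone H3 that is known as inducible in inflammation. It stood at 7.99, 8.38, 8.07 and 8.22 in controls and 8.53, 8.44, 8.57 and 8.35 in knockouts. The lowest knockout lay just under the highest control. The difference was 0.31 ± 0.09 SE, 1.24-fold, with an adjusted p of 0.129, between 0.0554 and 0.302 over its alternative fits, none of which called it. Its second, dim probe set gave 4.71 in both groups, and the mean of both probe sets gave 0.16.

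Kdm3a, an eraser of methylation on histone H3 known to be oxygen-responsive, had the second largest estimate, -0.21 ± 0.12 SE (adjusted p = 0.411), which was -0.11 without NCOR_KO replicate 4 and -0.14 without WT replicate 1. It also had the widest interval of the 46, with knockouts spread from 7.83 to 8.35 and controls from 8.23 to 8.57. The flavin enzymes Kdm1a, the CoREST demethylase, and its relative Kdm1b were at -0.06 ± 0.07 SE and -0.09 ± 0.09 SE. Kdm2a, Kdm4a, Kdm5a and Kdm5b, Jumonji enzymes that act on methylated histone H3, lay between -0.05 and -0.04, with adjusted p-values from 0.752 to 0.870. Kdm5b was at 0.01 with quantile normalization.

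EZH1 and EZH2 are the alternative catalytic subunits of Polycomb repressive complex 2, EZH1 being known as the form of non-dividing tissue. Ezh1 stood at 8.02, 7.92, 7.93 and 8.12 in controls and at 7.70, 7.83, 7.84 and 7.89 in knockouts. The groups did not overlap, but the closest arrays lay 0.03 apart, and the difference was -0.18 ± 0.07 SE (adjusted p = 0.225). Ezh2 was at -0.04 ± 0.06 SE (adjusted p = 0.778). Markers of dividing cells, with which EZH2 is known to go, overlapped between groups as well, with summed intensities of 288 to 342 in WT and 272 to 349 in NCOR_KO.

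NuRD joins HDAC1 and HDAC2 to a chromatin remodelling ATPase and to methyl-DNA binding and histone binding subunits. None of its 6 genes passed, and in 5 of 6 the interval lay within a 1.2-fold change. Chd4, the remodelling ATPase, had the largest estimate. Its controls stood at 9.12, 9.15, 8.99 and 9.13 and its knockouts at 9.41, 9.30, 9.25 and 9.06. Of the 4 knockouts 3 lay above all controls, and the difference was 0.16 ± 0.08 SE (adjusted p = 0.369).

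The other NuRD subunits were close to 0. Mta1 and Mta2, which bind the deacetylases, were at -0.03 ± 0.05 SE and -0.02 ± 0.06 SE, and Mta1 was at 0.00325 with quantile normalization. Mbd3, a subunit named for a domain of the methyl-DNA binding type, was at 0.03 ± 0.08 SE, or -0.02 with centred arrays. The histone chaperones Rbbp4 and Rbbp7, which SIN3 and Polycomb complexes also contain, were at -0.02 ± 0.06 SE and 0.04 ± 0.06 SE, the latter at -0.00379 with centred arrays.

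Partner subunits and relatives of these enzymes, 49 genes listed from general knowledge of which 46 were measured, gave a like picture. None of the 46 passed (limma, 0 higher and 0 lower). An unadjusted p under 0.05 was seen in 10 (21.7%), of which 1 was higher and 9 lower. The share was 15.9% of all genes and 22.5% at or above the median level (8.79% higher and 13.7% lower). The median of the 46 partners was -0.05, against -0.02 at or above the median level. With quantile normalization it was -0.04, against -0.004. The 95% interval lay within a 1.5-fold change for all 46. The groups did not overlap in 6 of them (13%), 1 with knockout above and 5 below. The share was 10.4% of all genes and 15.4% at or above the median level (5.9% above and 9.46% below). The largest estimate was that of Kdm7a, a Jumonji demethylase, at 8.25, 8.30, 8.06 and 8.23 in controls and 7.91, 7.98, 8.01 and 7.82 in knockouts. Its groups did not overlap, at a difference of -0.28 ± 0.07 SE (adjusted p = 0.0893).

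Hepatocyte markers checked the tissue. The summed intensity of 7 such genes was 52020 to 53990 in WT and 52410 to 53860 in NCOR_KO, and Alb, the albumin gene, was at 13.52 in both groups. The sum is of linear intensities, so the brightest markers carry most of it. None of the 7 was called. In Ttr (-0.06, adjusted p = 0.636) and Serpina1a (-0.12, adjusted p = 0.340) all knockouts lay below all controls. That is 2 of 7 (28.6%), against 5.49% of all genes and 9.46% at or above the median level. Some other markers moved with the groups. The summed intensity of 4 cholangiocyte markers was 302 to 318 in WT and 350 to 419 in NCOR_KO, with 1 called, Epcam (0.41, adjusted p = 0.0452), and all 4 estimates above 0. Sox9 was at 0.32 (adjusted p = 0.184), Krt19 at 0.08 (adjusted p = 0.535) and Krt7, below the median gene level, at 0.07 (adjusted p = 0.726). The summed intensity of 5 lymphocyte markers was 166.5 to 186 in WT and 202.5 to 210.9 in NCOR_KO. Of these 2 were called, Cd3e (0.47, adjusted p = 0.0373) and Cd79a (0.41, adjusted p = 0.0173), although all 5 lay below the median gene level. Over all genes 1.65% were called. Of the other lymphocyte markers Cd8a was at 0.18 (adjusted p = 0.299), Ms4a1 at 0.10 (adjusted p = 0.521) and Cd2 at -0.08 (adjusted p = 0.652). The summed intensity of 6 endothelial markers was 4712 to 5543 in WT and 5463 to 6445 in NCOR_KO, with none called and all 6 estimates above 0. These ran from 0.18 (Clec4g) to 0.30 (Cdh5), and the lowest adjusted p was 0.0831 (Stab2). The unadjusted limma p was under 0.05 in 5 of 6 (83.3%), against 15.9% of all genes and 22.5% at or above the median level. In Pecam1 and Stab2 (33.3%) all knockouts lay above all controls, against 4.9% of all genes and 5.9% at that level. Kupffer cell markers (1751 to 3438 and 2122 to 3743) and stellate cell markers (1316 to 1488 and 1204 to 1393) overlapped. The part of these shifts in the values of Hdac5, Kdm6b or any other regulator was not tested, and in whole liver RNA more or fewer cells of a type and more or less RNA per cell cannot be told apart.

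Median intensity was 41.0 to 44.1 over the 8 arrays, and the number of arrays limits the precision of each value. The median gene level of each array parted the groups. It was 5.778 to 5.8874 in WT arrays and 5.8922 to 5.909 in NCOR_KO arrays. The main fit left this shift in, and the fit with centred arrays took it out. Its part in the differences of single genes was not tested otherwise. WT replicate 2 and NCOR_KO replicate 1 lay apart from the rest on the second component of all genes, which held 20.4% of the variance. These arrays also had the lowest summed Kupffer cell markers, 1751 and 2122, against 2915 to 3743 in the others. With both left out 0 of the 46 regulators passed, and Hdac5, Sin3b, Sirt3 and Hdac4 kept their signs.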

How the data were processed

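Liver RNA samples, 4 per group, were measured on 8 arrays of 1 colour. The authors deposited linear intensities, 1 per probe set and array. RMA and Partek appear in the submitters' processing notes with no roles, and their versions, any filter and the build are not given in the sources used here. Log2 was taken and nothing else normalized. Of 41345 probe sets 23521 had 1 gene, and the brightest by mean over 8 arrays stood for each of 22180 genes, 3 of the 46 members having more than 1. No filter on dim genes was set, and 4 rows naming a member beside other genes were left out. Symbols were checked against RefSeq on GRCm38.p6, where 23328 matched by identifier and 0 changed.

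The knockout was tested against the control in limma 3.58.1 under R 4.3.3 (group as the only factor, eBayes without trend), with Benjamini-Hochberg adjustment over all genes and a threshold of 0.05. Intervals are the fit's unadjusted 95% limits. The steps were tested on simulated data. All regulators are named; values of all arrays are given where groups do not overlap, otherwise for the largest estimate of a family. Of the partner list the 1 with the largest estimate is named, since none passed. Members, lists, bounds and alternatives were chosen with earlier results of these data known, and the shares under a 1.2-fold rise and above a 1.2-fold fall and the shares among genes at or above the median level were added after values were seen. Alternative fits used quantile normalization, centring, trend and robust variance, array weights, a filter on dim genes, the mean of probe sets, a replicate block and leaving out arrays. A motif search planned for promoters of called members had 0 members. Figures were drawn with matplotlib 3.10.9.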

Additional observations from a re-analysis of the deposited data

Results flagged for a closer look

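In 7 of 92 groups of 4 arrays (46 genes, 2 groups each) 1 array stood far from the other 3, measured as its gap to the nearest array over the group's range; chance flags about 1 in 20 groups. Hdac8 was at 6.65 in WT replicate 4, above the other controls at 6.28 to 6.33. Kat2a was at 8.01 in WT replicate 3, above 7.78 to 7.80, and Rcor1 at 8.82 in the same array, below 9.02 to 9.04. In NCOR_KO replicate 1 Sirt6 was at 7.44, below 7.83 to 7.90, Sirt2 at 10.51, below 10.53 to 10.54, and Ep300 at 8.88, above 8.82 to 8.83. Sirt1 was at 8.06 in NCOR_KO replicate 3, above 7.90 to 7.92.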

How the results depend on the processing

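Of 46 regulators 42 were called in none of up to 16 alternative fits, and the count within a 1.5-fold change stayed at all those tested. With quantile normalization 1 of 46 was called (Hdac5), against 360 of all 22180 genes, and with centred arrays 1 (Sin3b), against 530. Trend and robust variance called 2 (Hdac5, Sirt3), against 444 of all genes, and array weights 2 (Hdac5, Sin3b), against 497. Among genes at or above the median level 4 of 45 were called (Hdac4, Hdac5, Sirt3, Sin3b), against 551 of 11090. The number was 0 with the mean of probe sets, the replicate block and each set of arrays left out. Across all genes 366 calls (181 higher, 185 lower) became 551 among genes at or above the median level, where fewer genes were tested, 155 with the replicate block and 120 to 297 with arrays left out (omitting WT replicate 1, 176; WT 3, 214; WT 4, 167; NCOR_KO 1, 175; NCOR_KO 2, 120; NCOR_KO 3, 193); why the block lowers it was not tested. With centred arrays the split was 147 and 383. Same-numbered arrays did not deviate together (correlations -0.0935 to 0.0167). With 4 arrays per group this cannot settle whether samples were paired, and the labels name no pairs.

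The sign held in every fit for 28 regulators. The other 18 had estimates of at most 0.06 in size; the cause of their sign changes was not tested. With quantile normalization the values were Hdac1 at 0.0225, Sirt2 at -0.00102, Sirt4 at -0.0148, Sirt6 at 4.85e-04, Kdm5b at 0.00996 and Mta1 at 0.00325. With centred arrays they were Sirt2 at -0.0309, Sirt4 at -0.0201, Kat2b at -0.0232, Rcor3 at -0.0149, Mbd3 at -0.0174 and Rbbp7 at -0.00379, and with array weights Sirt4 was at -0.0221. With arrays left out the ranges were -0.0615 to 0.0574 for Hdac1, -0.0101 to 0.135 for Hdac10, -0.0814 to 0.0129 for Hdac2, -0.0133 to 0.0452 for Kat2b, -0.0958 to 0.0092 for Kdm1a, -0.133 to 0.0174 for Kdm5a, -0.0796 to 0.0115 for Kdm5b, -0.0436 to 0.0803 for Mbd3, -0.0398 to 0.00425 for Mta2, -0.0506 to 0.00835 for Rbbp4, -0.022 to 0.0607 for Rbbp7, -0.00304 to 0.0924 for Rcor1, -0.0289 to 0.132 for Rcor3, -0.0336 to 0.0432 for Sirt2, -0.074 to 0.096 for Sirt4, -0.103 to 0.0403 for Sirt5 and -0.0908 to 0.0619 for Sirt6.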
